A study of Rattus norvegicus with 12 samples.

Results

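The genes described are 10 of the 15645 named genes on a rat expression array, chosen by function as the kidney's handling of sugars and its synthesis of glucose. They are the apical sodium-glucose cotransporters Slc5a1 and Slc5a2, the facilitative sugar transporters Slc2a1, Slc2a2 and Slc2a5, the gluconeogenic enzymes Pck1, Pc and Fbp1, and the hexokinases Hk1 and Hk2. Every array probe outside the controls whose RefSeq accession maps to one of these symbols was taken, which gave 21 probes, and 20 of them were bright enough to be tested.

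Total RNA of the renal cortex was labelled with Cy3 and hybridised to Agilent arrays, with 1 array for each of 12 male Sprague-Dawley (Crl:CD(SD)) rats, bought at an age of 5 weeks. The platinum compound cisplatin, which damages DNA and is toxic to kidney tubules, was compared with water after 4 weeks of dosing in 2 experiments. The first comprised 3 rats given cisplatin at 3.75 mg/kg/day by gavage and 3 given water by gavage, and the second 3 rats given cisplatin at 0.75 mg/kg/day by intravenous (IV) injection and 3 given water by IV injection. Route, dose and experiment changed together, so that their parts cannot be told apart. The dose of the IV animals is the one on their own sample labels, although a treatment text common to the whole series has 3.75 mg/kg/day. No animal was genetically modified, all were of one sex and strain, and the labels call the 3 animals of each group biological replicates.

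The kidney filters glucose from the blood and takes nearly all of it back in the proximal tubule. Slc5a2 carries the bulk of it through the apical membrane in the early proximal tubule and Slc5a1 recovers the rest further down, after which Slc2a2 and Slc2a1 let glucose leave through the basolateral membrane. The same cells make glucose from lactate, glutamine and glycerol during fasting and acidosis, through Pc, Pck1, Fbp1 and glucose-6-phosphatase, and they hold little hexokinase compared with the more distal nephron.

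Levels are given as the log2 signal of a probe minus the 75th percentile of its array, so that 0 is the signal of that percentile; they may be compared between animals but not between probes. Arrays of one group correlated across probes at r = 0.981 to 0.993. One array stood apart within its group: on the first principal component, which held 76.4% of the variance, IV cisplatin replicate 1 lay at 132, among the gavage cisplatin arrays (121 to 157), whereas IV cisplatin replicates 2 and 3 lay at 86.0 and 61.4. All 6 water arrays lay between -120 and -113. The 14 markers of the proximal tubule, all well above background on every array, had a summed signal of 274, 373 and 157 times the 75th percentile in gavage cisplatin rats against 2617, 2340 and 2507 in gavage water rats, and of 280, 711 and 905 in IV cisplatin rats against 2230, 2528 and 2188 in IV water rats. In whole cortex, fewer cells of a type and less RNA per cell cannot be told apart.

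With gavage cisplatin both apical cotransporters, the fructose transporter Slc2a5 and the enzymes Pck1, Pc and Fbp1 were lower than with water, and Slc2a1, Slc2a2, Hk1 and Hk2 were higher. Of the 20 probes, 13 (6 genes) were called lower and 7 (4 genes) higher, where 29.9% and 29.6% of all 43900 tested probes were called in those directions and 59.6% in either (limma, Benjamini-Hochberg adjusted p under 0.05 over all probes). On none of the 20 did the cisplatin and water animals overlap; over all probes 33.8% lay wholly lower and 33.4% wholly higher. With IV cisplatin those 6 genes were again lower (13 probes, where 30.6% of all probes were called lower) and Slc2a1, Slc2a2 and Hk1 higher (6 probes, where 27.6% were called higher and 58.2% in either direction), while the Hk2 probe was not called and overlapped. Over all probes 34.7% lay wholly lower and 31.2% wholly higher in the IV comparison. The median log2 change of the 20 probes was -2.91 with gavage cisplatin and -1.75 with IV cisplatin, against 0.01 and -0.03 over all probes. With the arrays scaled to their spike-in controls the median of all probes became 0.69 with gavage cisplatin and 0.68 with IV cisplatin, and the share of higher among called probes was 87.8% and 91.3%, against 49.7% and 47.4% with the percentile scaling and 38.7% and 39.7% after another background correction (normexp). Under spike-in scaling all 20 probes kept their sign in both comparisons, and in the IV one Pck1 probe 1 (-2.23, adjusted p = 0.0583) and Fbp1 probe 1 (-1.11, adjusted p = 0.117) lost their call while Hk2 gained one (0.95, adjusted p = 0.0175).

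**Figure D1:**
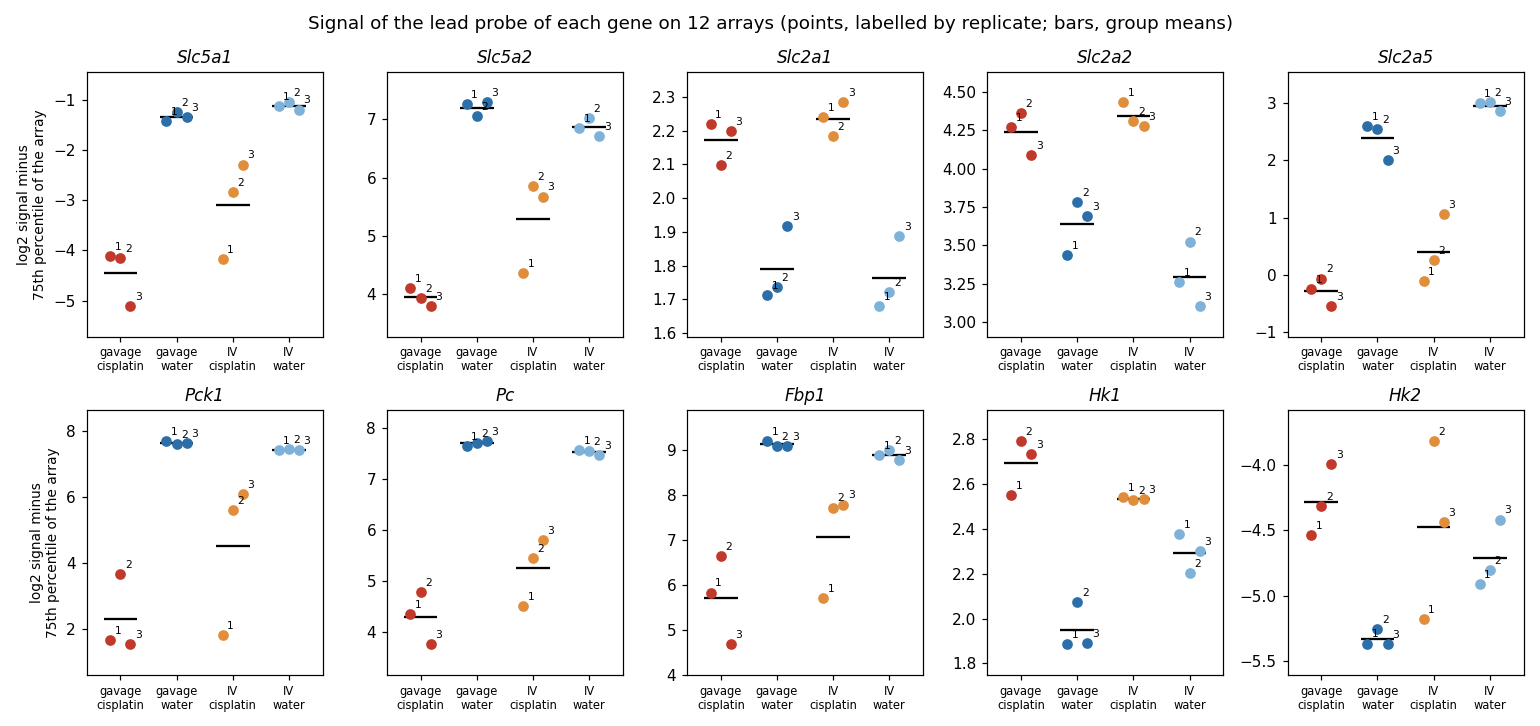
Signal of the brightest probe of each of the 10 genes on 12 arrays, as log2 signal minus the 75th percentile of the array; each point is 1 rat, numbered by replicate, and bars are group means. Each panel has its own axis, which does not start at 0. In the 6 genes that fell, IV cisplatin replicate 1 is the lowest of its group (Pck1 1.81, against 5.61 and 6.09 in the other IV cisplatin rats), while in Slc2a1 and Hk1 the 3 IV cisplatin rats lie close together.

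The renal cotransporter Slc5a2, also known as SGLT2 and the target of the gliflozin drugs, had 3 probes. Its brightest probe read 4.11, 3.94 and 3.80 in gavage cisplatin rats against 7.26, 7.05 and 7.28 in gavage water rats. It read 4.36, 5.85 and 5.68 in IV cisplatin rats against 6.85, 7.02 and 6.72 in IV water rats. Every cisplatin animal was below every water animal, and IV cisplatin replicate 1 was below the other IV cisplatin rats and near the gavage ones. The log2 change was -3.25 ± 0.32 with gavage cisplatin (9.48-fold lower, SE, n = 3 a group, limma adjusted p = 1.63e-05) and -1.57 ± 0.32 with IV cisplatin (2.96-fold lower, adjusted p = 0.00194). The other 2 probes gave -3.38 and -3.20 with gavage cisplatin and -1.63 and -1.69 with IV cisplatin, a range of 0.18 and 0.12 over the 3 probes.

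Slc5a1, the high-affinity cotransporter also known as SGLT1, takes up galactose as well as glucose. Its brighter probe read -4.10, -4.15 and -5.11 in gavage cisplatin rats against -1.41, -1.24 and -1.35 in gavage water rats. It read -4.18, -2.83 and -2.29 in IV cisplatin rats against -1.11, -1.05 and -1.19 in IV water rats. The water animals of both experiments lay within a narrow band, and the cisplatin animals lay below it and were more spread. The log2 change of this probe was -3.12 ± 0.42 with gavage cisplatin (8.71-fold lower, limma adjusted p = 0.000119) and -1.98 ± 0.42 with IV cisplatin (3.96-fold lower, adjusted p = 0.00242). The second probe fell by 2.34 with gavage cisplatin and by 2.06 with IV cisplatin, so that the 2 probes differed by 0.78 in the gavage comparison and by 0.08 in the IV one. With the normexp background correction the gavage changes were smaller, -2.20 and -1.71, and still called. Pdzk1ip1, the small membrane protein MAP17 that partners Slc5a2 in human cells, was not called in either comparison (-0.05 ± 0.11 with gavage cisplatin and -0.17 ± 0.11 with IV cisplatin); its sign turned under quantile and spike-in scaling in both comparisons and under another background correction in the gavage one, and an IV call was gained with array weights (-0.27, adjusted p = 0.0326) and without IV cisplatin replicate 1 (-0.29, adjusted p = 0.0334).

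Slc2a5, the fructose transporter GLUT5 of the apical membrane, was lower by nearly equal amounts in the 2 experiments. Its brighter probe read -0.24, -0.06 and -0.54 in gavage cisplatin rats against 2.60, 2.54 and 2.00 in gavage water rats. It read -0.10, 0.27 and 1.06 in IV cisplatin rats against 2.99, 3.00 and 2.86 in IV water rats. No cisplatin animal reached the lowest water animal of its experiment. On the log2 scale the change was -2.66 ± 0.27 with gavage cisplatin (6.32-fold lower, limma adjusted p = 2.13e-05) and -2.54 ± 0.27 with IV cisplatin (5.82-fold lower, adjusted p = 4.58e-05), and the second probe gave -2.69 and -2.51.

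The basolateral transporters went the other way. Slc2a2, the low-affinity transporter GLUT2 of tubule, liver and beta cells, read 4.27, 4.36 and 4.09 on its brightest probe in gavage cisplatin rats against 3.44, 3.78 and 3.69 in gavage water rats. It read 4.43, 4.31 and 4.28 in IV cisplatin rats against 3.26, 3.53 and 3.10 in IV water rats. All cisplatin animals were above all water animals, and IV cisplatin replicate 1 was the highest of its group. The log2 change was 0.60 ± 0.13 with gavage cisplatin (1.52-fold higher, limma adjusted p = 0.00273) and 1.05 ± 0.13 with IV cisplatin (2.06-fold higher, adjusted p = 0.000121). Its other 2 probes rose by 0.67 and 0.59 with gavage cisplatin and by 1.22 and 1.23 with IV cisplatin.

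Slc2a1, the widely expressed transporter GLUT1, had 1 probe and small rises. It read 2.22, 2.10 and 2.20 in gavage cisplatin rats against 1.71, 1.74 and 1.92 in gavage water rats. It read 2.24, 2.18 and 2.28 in IV cisplatin rats against 1.68, 1.72 and 1.89 in IV water rats. The groups did not overlap in either experiment, and the 6 cisplatin animals spanned less than the 6 water animals. The fitted log2 difference was 0.38 ± 0.09 with gavage cisplatin (1.30-fold higher, limma adjusted p = 0.00382) and 0.47 ± 0.09 with IV cisplatin (1.39-fold higher, adjusted p = 0.00127).

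Pck1, the cytosolic phosphoenolpyruvate carboxykinase that commits oxaloacetate to glucose, had the largest fall of the 10 genes in both comparisons, which in the IV one rested on IV cisplatin replicate 1. Its brighter probe read 1.65, 3.67 and 1.52 in gavage cisplatin rats against 7.72, 7.60 and 7.66 in gavage water rats. It read 1.81, 5.61 and 6.09 in IV cisplatin rats against 7.44, 7.45 and 7.44 in IV water rats. The water animals were almost alike, the gavage cisplatin animals were all far below them, and among the IV cisplatin animals replicate 1 lay 16.5-fold below the mean of the other 2. The log2 change was -5.38 ± 0.96 with gavage cisplatin (41.6-fold lower, limma adjusted p = 0.00078) and -2.94 ± 0.96 with IV cisplatin (7.67-fold lower, adjusted p = 0.0233). The second probe fell by 5.73 with gavage cisplatin and by 3.18 with IV cisplatin. Without gavage cisplatin replicate 2 the gavage change of the brighter probe was -6.07, and without IV cisplatin replicate 1 its IV change was -1.59 (adjusted p = 0.0313), a smaller fall than that of Slc2a5 (-2.29) or Pc (-1.90); leaving out any 1 of the IV water rats ended that call (adjusted p of 0.0527 to 0.0541). In a fit of the 6 IV arrays alone neither Pck1 probe was called (adjusted p = 0.0665 and 0.0575). The IV change was -3.73 without IV cisplatin replicate 3 and -2.10 with array weights.

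The letters before the start of the gene with the largest fall and of the single-probe transporter that rose are shown because the genes moved in opposite directions. The stretches are the 200 bases before the annotated start in RefSeq on GRCr8, at chr3:182348372-182348571 for Pck1 and chr5:138002322-138002521 for Slc2a1, both on the plus strand. Capitals mark the motif letters found.
Pck1: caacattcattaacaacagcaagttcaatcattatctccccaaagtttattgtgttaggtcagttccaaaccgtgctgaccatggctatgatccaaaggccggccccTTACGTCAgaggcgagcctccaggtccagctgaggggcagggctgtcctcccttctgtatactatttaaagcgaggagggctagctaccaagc
Slc2a1: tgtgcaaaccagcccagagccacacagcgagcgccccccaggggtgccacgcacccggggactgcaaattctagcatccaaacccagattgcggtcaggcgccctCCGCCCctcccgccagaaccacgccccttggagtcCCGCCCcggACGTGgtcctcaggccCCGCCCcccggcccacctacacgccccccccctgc
The search covered windows from 250 bases before to 50 bases after the start, on both strands, for TGACGTCA and TTACGTCA (cAMP response elements), ACGTG (hypoxia response), CAAAGTCCA (HNF4), TATAAA and GGGCGG (Sp1), which stand in 1.83%, 0.807%, 19.3%, 0.391%, 14.2% and 33.1% of 33469 RefSeq promoter windows of that length. Pck1 held TTACGTCA at positions -93 to -86 relative to its start, and no other window of the 10 genes held it. Slc2a1 held GGGCGG on the minus strand at -95 to -90, -60 to -55 and -35 to -30, ACGTG at -51 to -47, and TATAAA after the start, at 24 to 29. These matches did not overlap one another, and they describe the letters only. A window was found for 9 of the 10 genes, and Hk1 had 2 windows.

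Pc, the mitochondrial pyruvate carboxylase that makes the oxaloacetate used by Pck1, read 4.35, 4.78 and 3.77 on its brighter probe in gavage cisplatin rats against 7.65, 7.71 and 7.75 in gavage water rats. It read 4.52, 5.45 and 5.81 in IV cisplatin rats against 7.57, 7.55 and 7.47 in IV water rats. Both cisplatin groups lay wholly below their water groups. On the log2 scale the change was -3.40 ± 0.31 with gavage cisplatin (10.6-fold lower, limma adjusted p = 1.15e-05) and -2.27 ± 0.31 with IV cisplatin (4.82-fold lower, adjusted p = 0.000198). The second probe fell by 3.62 with gavage cisplatin and by 2.37 with IV cisplatin.

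Fbp1, the fructose-1,6-bisphosphatase that opposes phosphofructokinase, read 5.83, 6.65 and 4.68 on its brighter probe in gavage cisplatin rats against 9.21, 9.08 and 9.08 in gavage water rats. It read 5.71, 7.72 and 7.79 in IV cisplatin rats against 8.90, 8.99 and 8.79 in IV water rats. IV cisplatin replicate 1 was within the range of the gavage cisplatin rats and 4.13-fold below the mean of the other 2 IV cisplatin rats. The log2 change was -3.40 ± 0.57 with gavage cisplatin (10.6-fold lower, limma adjusted p = 0.000494) and -1.82 ± 0.57 with IV cisplatin (3.53-fold lower, adjusted p = 0.0187). The dimmer probe gave larger changes, -4.23 ± 0.64 with gavage cisplatin and -2.41 ± 0.64 with IV cisplatin. Without IV cisplatin replicate 1 the brighter probe was no longer called in the IV comparison (-1.14, adjusted p = 0.0514), and the dimmer one was (-1.61, adjusted p = 0.0173).

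Among the 12610 named genes tested, ranked by the change of their brightest probe from the largest fall, Pck1 stood at 41, Fbp1 at 222, Pc at 223, Slc5a2 at 250, Slc5a1 at 275 and Slc2a5 at 419 in the gavage comparison. In the IV comparison Pck1 stood at 129, Slc2a5 at 207, Pc at 290, Slc5a1 at 405, Fbp1 at 483 and Slc5a2 at 699.

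The hexokinases, which trap glucose in the cell as glucose-6-phosphate, were higher with gavage cisplatin. Hk1, the ubiquitous form bound to mitochondria, read 2.55, 2.79 and 2.73 on its brighter probe in gavage cisplatin rats against 1.88, 2.07 and 1.89 in gavage water rats. It read 2.54, 2.53 and 2.53 in IV cisplatin rats against 2.38, 2.20 and 2.30 in IV water rats. The cisplatin rats were above the water rats in both experiments without overlap, by a narrower gap in the IV one. The fitted log2 difference was 0.74 ± 0.09 with gavage cisplatin (1.67-fold higher, limma adjusted p = 7.12e-05) and 0.24 ± 0.09 with IV cisplatin (1.18-fold higher, adjusted p = 0.043). The second probe rose by 0.51 with gavage cisplatin (adjusted p = 0.00197) and by 0.39 with IV cisplatin (adjusted p = 0.00961). The IV call of the brighter probe was lost without any 1 of the IV cisplatin rats (adjusted p of 0.0793 to 0.0827), although the change stayed at 0.24. It was lost in 8 of the 12 fits that left out 1 array, with normexp (0.15, adjusted p = 0.124), without the filter, and in a fit of the 6 IV arrays alone.

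Hk2, the insulin-regulated form of muscle and fat, had a dim probe that could be tested and another that was not well above background on any of the 12 arrays. The tested probe read -4.54, -4.31 and -3.99 in gavage cisplatin rats against -5.37, -5.26 and -5.38 in gavage water rats. It read -5.18, -3.81 and -4.44 in IV cisplatin rats against -4.91, -4.81 and -4.42 in IV water rats. The gavage groups were apart and the IV groups overlapped. The log2 change was 1.05 ± 0.29 with gavage cisplatin (2.08-fold higher, limma adjusted p = 0.0101) and 0.24 ± 0.29 with IV cisplatin (adjusted p = 0.507). The gavage call was lost with another background correction (0.15, limma adjusted p = 0.384) and with both Hk2 probes averaged (0.76, adjusted p = 0.0911). With slide fitted as a fixed block the change was 0.80. That value rests on gavage cisplatin replicate 1 alone, the only cisplatin rat on the slide of the gavage water rats.

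**Figure D2:**
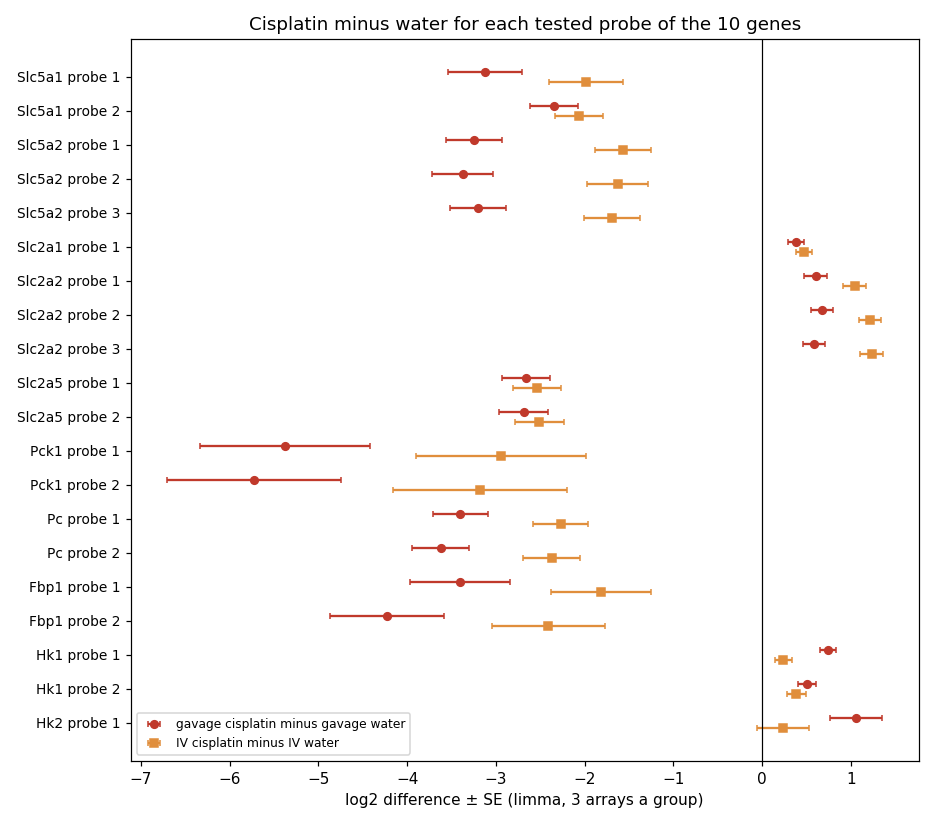
Log2 difference of cisplatin minus water with its SE (limma, 3 arrays a group) for the 20 tested probes, with the gavage experiment as circles and the IV experiment as squares. Probes of one gene lie together, those of the 6 falling genes are left of 0 in both experiments, and Pck1 has both the largest changes (-5.38 and -5.73 with gavage cisplatin) and the widest errors.

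The groups were not spread evenly over the 3 slides: slide 1 held the gavage water rats and gavage cisplatin replicate 1. Within slide 2, which held gavage cisplatin replicates 2 and 3 and the IV water rats, the 13 falling probes were all lower in the cisplatin rats, Pck1 by 4.85 and 5.16, Slc5a2 by 2.96 to 3.10 and Slc2a5 probe 1 by 3.25, and Hk1 probe 2 and Hk2 were not called (0.27, adjusted p = 0.0961, and 0.56, adjusted p = 0.0622, limma). In slide 2 gavage cisplatin is set against IV water, so route and experiment differ there as well as treatment. The mean of IV water was above that of gavage water by 0.25 for Hk1 probe 2 and by 0.62 for Hk2. The 3 IV cisplatin arrays shared a slide of their own, so that slide and group cannot be told apart in the IV comparison.

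Whether the effect of cisplatin differed between the experiments was tested as IV minus gavage change. None of the 20 probes passed in limma (0 called, lowest adjusted p = 0.091, Hk1 probe 1), where 0.815% of all probes did (0.169% upward and 0.647% downward), and 9 of the 20 had an unadjusted p under 0.05, where 19.3% of all probes did. The difference was 1.68 on the Slc5a2 probe with a 95% interval of 0.69 to 2.67 (unadjusted p = 0.00366, adjusted p = 0.0979), the IV cisplatin fall being the smaller. It was 2.44 for Pck1 with an interval of -0.58 to 5.46 (1.65 without IV cisplatin replicate 3, adjusted p = 0.584), 1.13 for Pc with 0.15 to 2.11, 0.12 for Slc2a5 with -0.73 to 0.97, and 0.09 for Slc2a1 with -0.19 to 0.37. A p that missed the threshold does not show that the experiments acted alike. Slc2a2 differed by 0.44, 0.54 and 0.65 on its 3 probes, with the larger rise under IV cisplatin. Hk1 differed by -0.50 and -0.12, with the larger rise under gavage cisplatin. Without gavage cisplatin replicate 1, Slc2a2 probe 3 (0.75, limma adjusted p = 0.0292) and Hk1 probe 1 (-0.57, adjusted p = 0.0254) were called.

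Leaving out IV cisplatin replicate 1 also changed this comparison. Then 9 of the 20 probes were called, all with the smaller fall under IV cisplatin, and 6.5% of all probes were called. They were the 3 of Slc5a2 (2.15, 2.25 and 1.98, limma adjusted p = 0.0155 for each), both of Pck1 (3.79 and 3.93) and of Pc (adjusted p = 0.0355 and 0.0307), and 1 each of Slc5a1 (1.68, adjusted p = 0.038) and Fbp1 (2.62, adjusted p = 0.0442). That array was the lowest of its group on all 13 probes of the falling genes and its proximal tubule markers had a summed signal of 280, against 711 and 905 in the other IV cisplatin rats; the part of the marker level in the result was not tested.

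**Figure D3:**
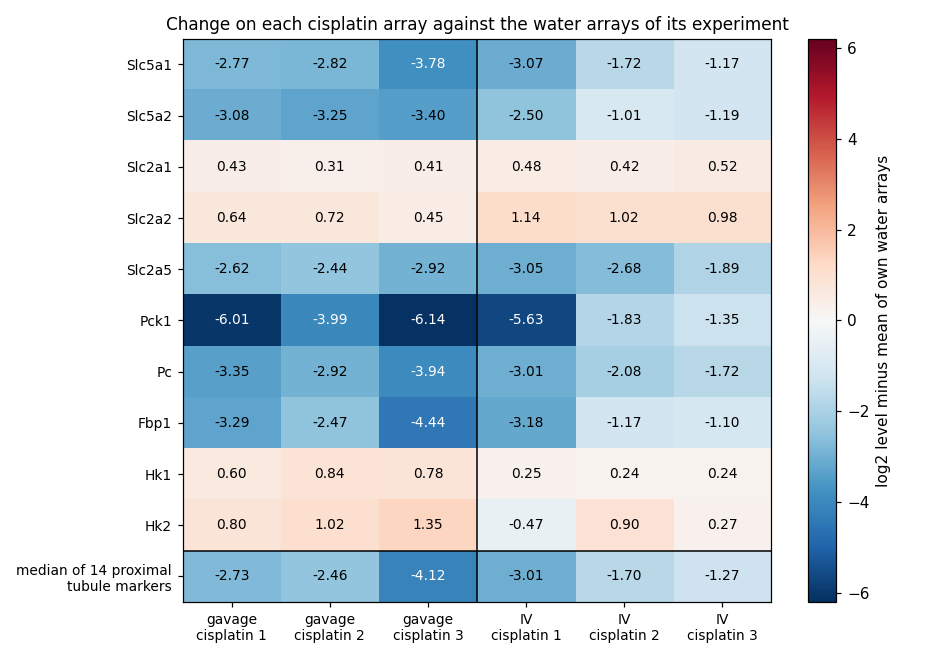
Change on each of the 6 cisplatin arrays, as log2 level minus the mean of the 3 water arrays of the same experiment, for the brightest probe of the 10 genes and, in the last line, for the median of 14 proximal tubule markers. Blue cells are lower and red cells higher than water; IV cisplatin replicate 1 (Pck1 -5.63, markers -3.01) resembles the gavage cisplatin arrays more than IV cisplatin replicate 3 (Pck1 -1.35, markers -1.27) does.

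The falling genes were set beside the markers of the proximal tubule array by array. In each cisplatin group their largest falls lay on the array where the markers fell most, gavage cisplatin replicate 3 and IV cisplatin replicate 1. The markers' median change was -2.73, -2.46 and -4.12 on the gavage cisplatin arrays and -3.01, -1.70 and -1.27 on the IV cisplatin arrays. Fbp1 changed by -3.29, -2.47 and -4.44 on the gavage cisplatin arrays and by -3.18, -1.17 and -1.10 on the IV cisplatin arrays. Slc2a2, which is also a transporter of that segment, changed by 0.64, 0.72 and 0.45 on the gavage cisplatin arrays and by 1.14, 1.02 and 0.98 on the IV cisplatin arrays, against the direction of the markers on every one. All 14 markers fell with gavage cisplatin and 13 of 14 with IV cisplatin, with medians of -3.08 and -2.03. Of the distal nephron markers 8 of 10 fell in each comparison, with summed signals of 154 to 249 in gavage cisplatin rats against 644 to 686 in gavage water rats and of 126 to 194 in IV cisplatin rats against 624 to 725 in IV water rats. In each comparison 6 of 7 macrophage and 6 of 6 fibroblast markers rose, of which Cd163 and Lum, well above background on no water array, were tested through their level in cisplatin rats. The macrophage markers summed to 12.1 to 19.0 in gavage cisplatin rats against 4.81 to 5.18 in gavage water rats, and to 13.0 to 17.4 in IV cisplatin rats against 4.51 to 6.88 in IV water rats. The part of these markers in the changes of the 10 genes was not tested.

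The water groups gave the background between the experiments. None of the 20 probes was called in IV water minus gavage water (0 in limma, as 0.0% of all probes; 5 of the 20 at an unadjusted p under 0.05, where 13.9% of all probes were, and 1, Hk1 probe 1, with array weights). The groups were nevertheless apart on 15 of the 20, 6 higher and 9 lower in IV water, against 12.5% and 16.0% of all probes. The lowest unadjusted p was that of Hk1 probe 1, 0.34 ± 0.09 higher in IV water (adjusted p = 0.164), and the 3 Slc2a2 probes were lower in IV water by -0.34, -0.39 and -0.43 (adjusted p of 0.188 to 0.294). In both genes the experiment with the lower water level had the larger rise under cisplatin. Because the rise is measured from that same water level, this pattern is partly built in. The water levels of Pck1, Pc and Fbp1 differed by no more than -0.23. With slide fitted as a fixed block the Pck1 values were -1.16 and -1.23. That fit took its slide term from the gavage cisplatin rats alone, so these values also carry the spread of those rats.

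In order of level, gavage cisplatin was lowest, then IV cisplatin, then the water groups for the group means of Slc5a1, Slc5a2, Slc2a5, Pck1, Pc and Fbp1. In each of these genes the neighbouring water groups were not separated by the test, and gavage and IV cisplatin rats overlapped in all of them because of IV cisplatin replicate 1, apart from Slc5a2, where that animal (4.36) lay just above the highest gavage cisplatin rat (4.11). Of the genes that rose, Slc2a1 and Slc2a2 had their highest mean in IV cisplatin and then gavage cisplatin rats, and Hk1 probe 1 and Hk2 in gavage cisplatin and then IV cisplatin rats. Hk1 probe 2 averaged -0.15 in gavage cisplatin and -0.02 in IV cisplatin rats, the other way round. The lowest mean was that of IV water for Slc2a1 and Slc2a2 and that of gavage water for Hk1 and Hk2.

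The gene whose 12 levels lay closest to those of each member after centring was sought among 12598 named genes, as the root mean square difference in log2. It was Cat for Pc (0.105), Cltrn for Fbp1 (0.105), Fmo4 for Slc5a1 (0.175), Id4 for Slc2a5 (0.205), Ahcyl2 for Slc5a2 (0.212) and Galnt14 for Pck1 (0.269). For the rising genes it was Zw10 for Slc2a1 (0.0771), Mapk6 for Hk1 (0.0778), Smyd5 for Slc2a2 (0.13) and Csrnp1 for Hk2 (0.218). Galnt14, picked for its likeness to Pck1 over these same arrays, changed by -5.37 with gavage cisplatin and -3.29 with IV cisplatin.

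The rest of the gluconeogenic route fell with the 3 enzymes. Of 15 other measured genes of gluconeogenesis and its mitochondrial shuttles, 11 fell and 1 rose with gavage cisplatin and 9 fell and 2 rose with IV cisplatin, where 32.7% and 31.7% of named genes fell, 30.3% and 29.8% rose and 62.9% and 61.5% did either (brightest probes, limma adjusted p under 0.05). Their medians were -1.44 and -1.12, against -0.03 and -0.01 over all named genes. G6pc1, the catalytic subunit of glucose-6-phosphatase that releases free glucose, changed by -4.58 ± 0.60 with gavage cisplatin and -2.59 ± 0.60 with IV cisplatin, and Slc37a4, its glucose-6-phosphate carrier, by -2.49 ± 0.11 and -2.21 ± 0.11. Glud1, which feeds glutamate carbon into the cycle, fell by 1.44 with gavage cisplatin and 1.12 with IV cisplatin, Mdh1, the cytosolic malate dehydrogenase, by 1.79 and 1.55, and Slc25a11, the oxoglutarate carrier, by 2.04 and 1.38. Pck2, the mitochondrial counterpart of Pck1, rose instead, by 0.50 ± 0.13 (adjusted p = 0.00628) with gavage cisplatin and 0.49 ± 0.13 (adjusted p = 0.00742) with IV cisplatin. With spike-in scaling 8 fell and 4 rose with gavage cisplatin, and 7 fell and 5 rose with IV cisplatin.

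**Figure D4:**
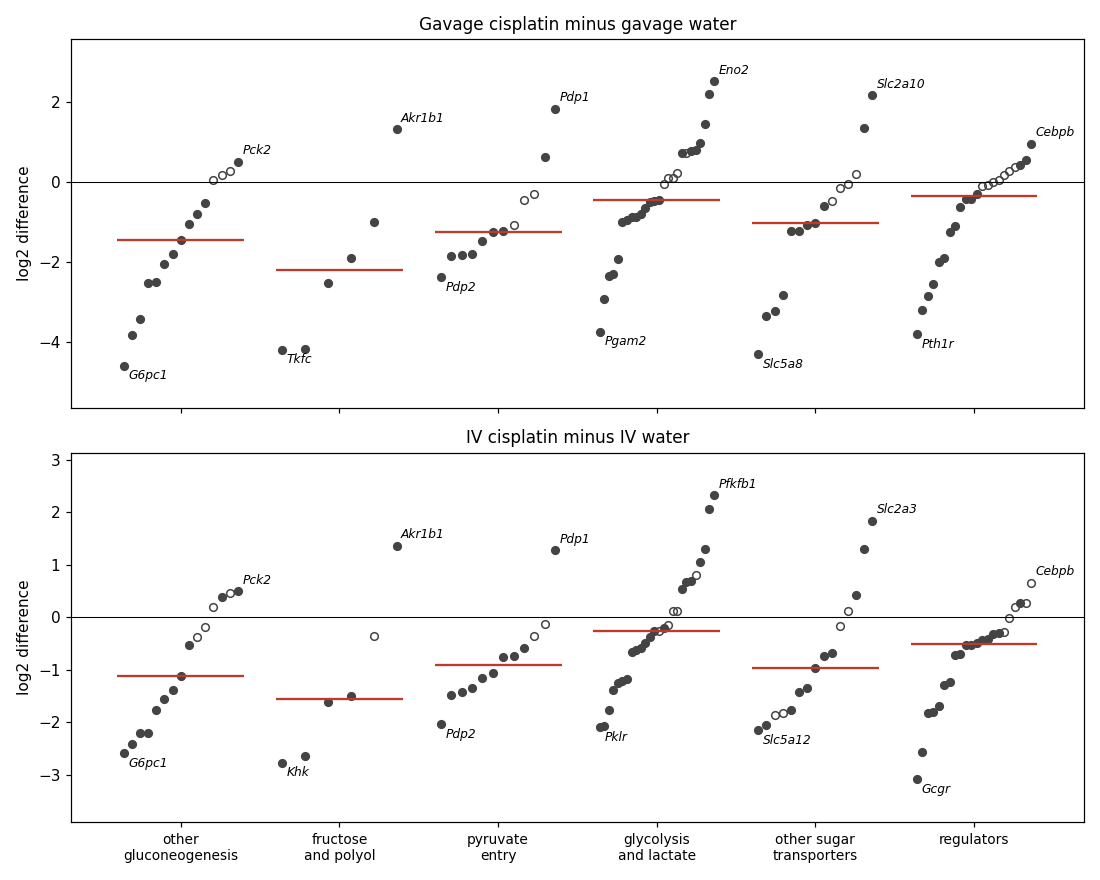
Log2 difference of cisplatin minus water for the brightest probe of each gene in 6 related lists, with the gavage experiment above and the IV experiment below. Filled points passed the test (limma adjusted p under 0.05), open points did not, and red lines are list medians. The lowest and highest gene of each list is named. With the percentile scaling the medians are below 0 in every list, the lowest being fructose and polyol metabolism (-2.20 with gavage cisplatin and -1.56 with IV cisplatin).

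Genes that handle fructose moved with Slc2a5. Of 6, 5 fell and 1 rose with gavage cisplatin, and 4 fell and 1 rose with IV cisplatin. Over all named genes 32.7% and 31.7% fell and 30.3% and 29.8% rose with gavage and IV cisplatin. Khk, the ketohexokinase that phosphorylates fructose, changed by -4.16 ± 0.55 with gavage cisplatin and -2.77 ± 0.55 with IV cisplatin, and Tkfc, which phosphorylates the glyceraldehyde made next, by -4.18 ± 0.53 and -2.63 ± 0.53. Glyctk, the glycerate kinase, fell by 2.51 with gavage cisplatin and 1.61 with IV cisplatin, and Sord, which oxidises sorbitol to fructose, by 1.89 with gavage cisplatin and to a called extent with IV cisplatin (adjusted p = 3.32e-05). The gene that rose was Akr1b1, the aldose reductase that makes sorbitol, by 1.31 and 1.36; it was singled out after its values were seen.

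The 26 genes of glycolysis and lactate handling were divided, with 7 higher and 14 lower in each comparison. Among all named genes 30.3% rose and 32.7% fell with gavage cisplatin, and 29.8% rose and 31.7% fell with IV cisplatin. The share of this list that rose was thus near that of all named genes. The list medians were -0.46 with gavage cisplatin and -0.27 with IV cisplatin. These counts and medians hold for the percentile scaling. With spike-in scaling the median of all probes became 0.69 and 0.68, and the counts of this list under it are not given. Ldha, the lactate-forming dehydrogenase subunit, rose by 0.98 ± 0.10 with gavage cisplatin and 1.05 ± 0.10 with IV cisplatin, and Pkm, the pyruvate kinase of most tissues, by 0.77 and 0.54. Eno2, the neuronal enolase, rose by 2.51 and 2.06 on its brighter probe, while the other changed by 0.42 with gavage cisplatin, and Pfkp, the platelet phosphofructokinase, by 1.45 and 0.68. Ldhb, the dehydrogenase subunit common in oxidative tissue, fell by 1.93 with gavage cisplatin and 1.25 with IV cisplatin, and Eno1, the common enolase, by 0.95 and 0.62, although spike-in scaling turned the sign of Eno1 in the IV comparison (0.09, adjusted p = 0.706).

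Entry of pyruvate into mitochondria and into the pyruvate dehydrogenase complex was lower for most genes measured, 7 of 12 lower and 2 higher with gavage cisplatin and 9 lower and 1 higher with IV cisplatin. The shares of all named genes were 32.7% and 31.7% lower and 30.3% and 29.8% higher. Mpc1, a subunit of the pyruvate carrier, changed by -1.79 and -1.42 with gavage and IV cisplatin, Pdhb and Dld of the complex by -1.46 and -1.15 and by -1.23 and -0.74, and the inhibitory kinase Pdk2 by -1.82 and -1.48. The genes that rose, named after their values were seen, were the activating phosphatase Pdp1 in both comparisons (1.82 and 1.28) and the kinase Pdk1 with gavage cisplatin (0.62; -0.14, adjusted p = 0.37, with IV cisplatin). With spike-in scaling the IV counts were 4 lower and 2 higher, and Pdhb (-0.44, adjusted p = 0.0518) and Dld (-0.03, adjusted p = 0.888) lost their IV calls.

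Of 15 other sugar and related transporters, 9 fell and 2 rose with gavage cisplatin, and 8 fell and 3 rose with IV cisplatin. All named genes fell in 32.7% and 31.7% and rose in 30.3% and 29.8% of cases. Slc5a11, a sodium-inositol cotransporter, changed by -3.22 ± 0.33 with gavage cisplatin and -2.04 ± 0.33 with IV cisplatin, Slc5a12, a lactate cotransporter of the proximal tubule, by -3.34 and -2.14, and Slc2a13, a proton-inositol transporter, by -1.22 and -1.77. Slc2a6, a lysosomal sugar transporter, had 2 probes of opposite sign in the gavage comparison (-1.08 and 1.43), so that no direction is given. The genes called higher in both comparisons were Slc2a3, the high-affinity transporter GLUT3, and Slc2a10, and each was well above background on none of the 6 water arrays, so that each was tested through its level in cisplatin rats. Against the lowest signal above background, Slc2a3 was at least 2.29-fold higher with gavage cisplatin (adjusted p = 0.00114) and at least 2.12-fold higher with IV cisplatin (adjusted p = 0.000207), and no fold is given for Slc2a10. They and the urate transporter Slc2a9, which rose with IV cisplatin (0.43, adjusted p = 0.015), were named after their values were seen. Without IV cisplatin replicate 1 the IV counts were 7 lower and 1 higher, and with spike-in scaling they were 4 lower and 5 higher, against 5 and 5 with gavage cisplatin.

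Regulators of renal glucose metabolism fell more often than they rose, 12 of 22 lower and 3 higher with gavage cisplatin and 16 lower and 1 higher with IV cisplatin. Of all named genes 32.7% and 31.7% were lower and 30.3% and 29.8% higher. Hnf4a, a nuclear receptor that maintains proximal tubule identity, changed by -3.20 ± 0.30 with gavage cisplatin and -1.83 ± 0.30 with IV cisplatin. The receptors Pth1r, for parathyroid hormone, and Gcgr, for glucagon, changed by -3.80 and -2.56 and by -2.85 and -3.09. Ppargc1a, a coactivator of gluconeogenic genes, fell by 1.097 with gavage cisplatin and 0.72 with IV cisplatin, and Prkaa2, a catalytic subunit of AMP-activated kinase, by 1.24 and 1.23. The genes that rose, named after their values were seen, were Foxo3 (0.54), Cebpb (0.95) and Hif1a (0.42) with gavage cisplatin and Creb1 (0.27) with IV cisplatin. With spike-in scaling, which raised the median of all probes by 0.69 and 0.68, this list had 7 lower and 10 higher with gavage cisplatin and 6 lower and 5 higher with IV cisplatin, and Ppargc1a was no longer called in either comparison.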

How the data were processed

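Renal cortex RNA of 12 rats was measured on 1-colour Agilent arrays. Per the file headers, spot intensity was extracted, background-subtracted and corrected with the scanner software, Feature Extraction by Agilent, which the submitters' processing notes give as version 10.7, and the deposited flags mark probes well above background. The authors' deposited value table holds a ratio, the processed signal over the 75th percentile of its array, and was used as an alternative. From the processed intensity, log2 values were taken and the 75th percentile of each array was subtracted. Controls (1439 of 62976 spots) and 82 spot values marked as uneven (none on a member) were left out. Of 61537 probes, 43900 were tested, those that any group's 3 arrays all flagged as well above background. The probe's accession was matched to a RefSeq gene table (GRCr8), so that 28206 probes had 1 symbol and 33331 none. The array was designed on rn4, and no probe coordinates are given.

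All 4 groups were fitted together with limma 3.58.1 in R 4.3.3 (lmFit and eBayes), with Benjamini-Hochberg adjustment over all tested probes and calls at an adjusted p under 0.05; SE are those of the fit. The fit was tested on simulated data. Different probes of a gene were kept apart, and the brightest over 12 arrays stood for a gene elsewhere. Precision is limited by 3 arrays a group. The members and lists were chosen with earlier results of these data known. Named were all member probes, up to 4 called genes of each list with the smallest gavage p, the genes G6pc1, Slc37a4, Pck2, Ldha, Pkm, Khk, Pdzk1ip1, Ppargc1a and Hnf4a, and the gene most like each member; some further genes are not reported here. Alternatives were background correction, scaling, filters, probe summaries, the deposited ratios, array weights, slide and replicate blocks, a mean-variance trend, the 6 arrays of an experiment alone and leaving out each array.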

Additional observations from a re-analysis of the deposited data

Results flagged for a closer look

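Among the genes named, Pfkp differed between the experiments. The platelet phosphofructokinase rose by 0.68 with IV cisplatin and by 1.45 with gavage cisplatin, and the difference of -0.77 passed the test (limma adjusted p = 0.0444), where 0.365% of named genes were called by their brightest probe. The difference lay between -0.84 and -0.69 over the alternatives, and passed in 11 of 25 of them (adjusted p of 0.0121 to 0.335). In the same lists Got2, the mitochondrial aspartate aminotransferase, singled out after its values were seen, also passed, in the other direction. It changed by -0.20 with IV cisplatin (not called, limma adjusted p = 0.0616) and by -0.80 with gavage cisplatin. The difference was 0.61 (adjusted p = 0.0476). It was not called with quantile scaling, spike-in scaling, no filter or a replicate block, where 0 probes were called for the difference. IV water minus gavage water was -0.29 for Got2 (adjusted p = 0.179), and both changes are measured from these water levels.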

How the results depend on the processing

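Over the 20 probes and all alternatives run, 535 of 540 values in the gavage comparison and 477 of 500 in the IV comparison kept their direction and their side of the threshold, and 5 and 20 lost the call. The causes of the changes below were not tested. For Hk2 the IV change reversed to -0.025 with normexp and -0.096 without IV cisplatin replicate 2 (range on leaving out arrays -0.096 to 0.59). For Slc2a5 the difference between experiments turned to -0.10 and -0.043 with normexp, to -0.011 without gavage cisplatin replicate 3 and to -0.21 and -0.16 without IV cisplatin replicate 3, as did Slc5a1 probe 2 to -0.0038; the highest Slc2a5 values on leaving out arrays were 0.37 and 0.45. For Slc2a1 the water difference turned to 0.0017 under spike-in scaling, 0.046 with slide fitted as fixed block, 0.038 without gavage water replicate 3 and 0.016 without IV water replicate 1 (lowest -0.089). Slc2a6 reversed to 0.17 with gavage cisplatin and 0.043 with IV cisplatin when all its probes were averaged. Pdzk1ip1 reversed with gavage cisplatin to 0.049 with normexp, 0.24 with quantile and 0.64 with spike-in scaling, and with IV cisplatin to 0.034 with quantile and 0.54 with spike-in scaling. In the IV comparison Eno1 turned to 0.087 with spike-in scaling. Probes called for a difference between experiments numbered 358, against 612 with normexp, 0 with quantile scaling, spike-in scaling or no filter, 617 with probes above background on all 12 arrays, 2685 with array weights, 775 with slide as a random block and 619 with a trend. Member probes called there were 1 lower with normexp, and 4 higher and 1 lower with array weights. Between the water groups 0 were called, against 9 with normexp, 1 with the stricter filter or the trend, 1942 with array weights (1 member, higher) and 14 with slide fitted as fixed block. In that last fit, as for the Slc2a1 value above, the slide term came from the gavage cisplatin rats alone. Leaving out 1 array at a time gave 23509 to 26794 calls in the gavage comparison, 22475 to 25827 in the IV one, 0 to 2926 for the difference and 0 to 1253 between water groups. Among the members it gave 7 higher and 13 lower in the gavage comparison, 5 to 6 higher and 12 to 13 lower in the IV one, and 0 to 9 higher and 0 to 1 lower for the difference. Equal replicate numbers were not treated as pairs of animals. The deviations of 18 pairs with equal numbers correlated at -0.36 to 0.19. They were not set against pairs with unequal numbers, so whether the numbers pair animals was not tested. In the fit with a replicate block 25487 probes were called in the gavage comparison, 24759 in the IV one and 0 for the difference.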
